A study of Homo sapiens with 65 samples.

Results

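CHRNA3, CHRNA5 and CHRNB4 are 3 neighbouring genes on chromosome 15 that encode subunits of neuronal nicotinic acetylcholine receptors, ion channels that open when acetylcholine binds. They are 3 of the 58735 genes in the count table, and all 3 passed the filter on low counts in both arms of the study (13797 genes tested in the genotype arm and 12748 in the enzyme arm). They were chosen from measured values, namely from calls between conditions at day 2.5 in both arms and at day 4.5 under early hyaluronidase. The values of those 3 comparisons are therefore descriptions, and a call named there is what chose the genes, not a test result in their support. Nicotinic receptors are assembled from subunits around a central pore that passes cations. CHRNA3 and CHRNB4 together form the main receptor of autonomic ganglia, through which the nervous system also reaches the heart, and CHRNA5 encodes an accessory subunit that joins such receptors and alters their conductance and sensitivity.

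The libraries, 65 in all, were made with a 3′ mRNA kit from left-ventricular cardioids, which are heart-like aggregates of the human induced pluripotent stem cell line WTC-11, and each pooled 8 cardioids. The genotype arm compared wild-type lines (WT, with line names WT, WT_TU, cl43_WT_UT and TNT2) with clones labelled HAS2 knockout (KO, clones cl4, cl14, cl46 and cl51, of which cl4 gave 3 of the 6 libraries at days 1.5, 2.5 and 4.5 and 2 of the 3 at day 7.5). HAS2 makes hyaluronan, a sugar polymer of the extracellular matrix. There were 5 libraries of WT and 6 of KO at day 1.5, 6 of each genotype at days 2.5 and 4.5, and 3 of each at day 7.5. The enzyme arm, labelled WT in genotype throughout, compared untreated cardioids with cardioids given hyaluronidase, which digests hyaluronan, until collection, either early, starting on day 1.5 (HAse1.5), or late, starting on day 2.5 (HAse2.5). Each of its 8 groups held 3 libraries, 1 each of the lines TNNI1, WT and TNNT2, which the labels number 1, 2 and 3. HAse1.5 was collected at days 2.5, 4.5 and 7.5 and HAse2.5 at days 4.5 and 7.5, each with untreated cardioids of the same day. All groups shared the left-ventricular protocol: mesoderm induction with Activin A, BMP4, FGF2 and CHIR99021, reseeding on day 1.5, and patterning with BMP4, FGF2, insulin, C59 and retinoic acid. The KO lines are clones, so a clone's own traits and the knockout are told apart only as far as 4 clones do so. At day 7.5 KO held only cl4 and cl14, and WT only the lines WT and WT_TU. Steps from day 4.5 to 7.5 in this arm therefore also change the lines.

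Totals ran from 831062 to 3574843 counts per library, with a median of 1570954, and levels are given in CPM, a gene's counts scaled to 1e+06 counts of its library. A group whose libraries all hold 3 counts or fewer is said to be at the floor. Where 1 of the groups compared is at the floor, the fold is stated as a minimum, taking 3 counts for each of its libraries. Floors cover counting error only. HAS2 itself gave between 87.0 and 913 CPM in the libraries of the genotype arm, with overlapping ranges in WT and KO, and 3′ counts do not check an edit elsewhere in the gene. Markers of the labelled cell type were present: the summed level of 12 cardiac mesoderm and cardiomyocyte genes was 237 to 662 CPM in WT at day 1.5 and 25487 to 26880 CPM in WT at day 7.5. In pooled cardioids, fewer cells expressing a gene and less RNA per cell cannot be told apart.

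On GRCh38 (GENCODE 29), CHRNA5 (ENSG00000169684) occupies chr15:78565520-78595269 on the plus strand, CHRNA3 (ENSG00000080644) chr15:78593052-78621295 on the minus strand, and CHRNB4 (ENSG00000117971) chr15:78624119-78727754 on the minus strand. CHRNA3 and CHRNA5 run towards each other and their spans share 2218 bases, of which 198 are exonic in both, while 2823 bases separate CHRNA3 from CHRNB4. The 3′ ends of the principal transcripts, where the kit reads, lie at 78595305 for CHRNA3 and 78595269 for CHRNA5. The last 500 exonic bases of each of the 3 principal transcripts hold 0 bases of another gene's exons. The strand setting of the counting is not given in the sources used here, so reads from the shared exonic stretch could not be assigned with certainty. The antisense gene AC027228.2 inside CHRNA5 had at most 5 counts in any library.

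**Figure D1:**
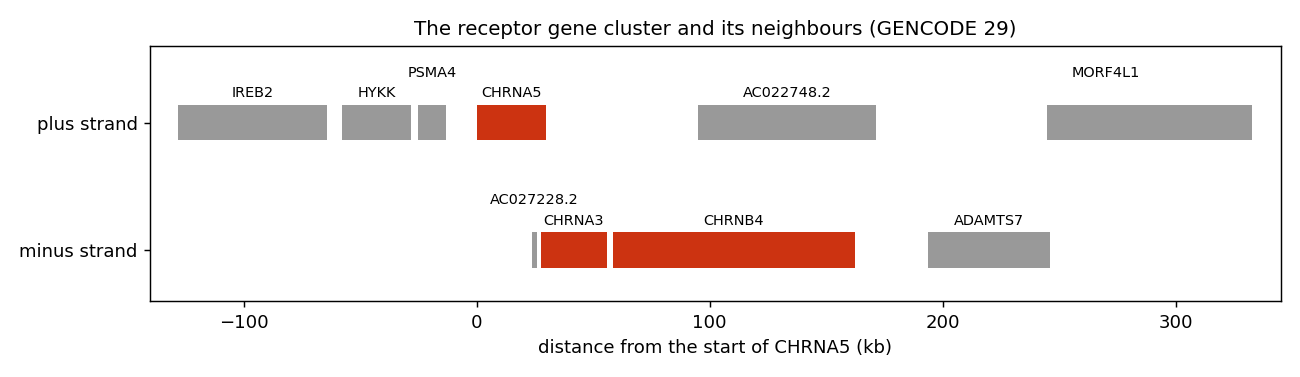
Gene spans around the cluster by strand, as the distance from the start of CHRNA5 in kilobases (GENCODE 29); the 3 receptor genes are in red and their annotated neighbours in grey. The ends of CHRNA5 and CHRNA3 overlap by 2218 bases, and CHRNB4 follows CHRNA3 on the same strand.

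CHRNA3 and CHRNB4 were the members with the large differences at day 2.5 in both arms, so the 250 bases before the start of each are shown as RefSeq gives them (GRCh38.p14, 5′ to 3′ on the minus strand, chr15:78620997-78621246 for CHRNA3 and chr15:78641211-78641460 for CHRNB4). The RefSeq starts of both genes, and both windows, lie inside the longer GENCODE spans of these genes. Of the 3 genes, 2 had an entry among the 35116 promoters of the table. Capitals mark GC boxes (GGGCGG on either strand) and E-boxes (CANNTG, which reads alike on both strands).
CHRNA3: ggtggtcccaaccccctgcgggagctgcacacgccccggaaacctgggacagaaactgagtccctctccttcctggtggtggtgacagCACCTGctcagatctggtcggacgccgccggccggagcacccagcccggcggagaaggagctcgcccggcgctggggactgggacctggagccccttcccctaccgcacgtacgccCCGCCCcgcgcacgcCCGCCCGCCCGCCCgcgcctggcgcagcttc
CHRNB4: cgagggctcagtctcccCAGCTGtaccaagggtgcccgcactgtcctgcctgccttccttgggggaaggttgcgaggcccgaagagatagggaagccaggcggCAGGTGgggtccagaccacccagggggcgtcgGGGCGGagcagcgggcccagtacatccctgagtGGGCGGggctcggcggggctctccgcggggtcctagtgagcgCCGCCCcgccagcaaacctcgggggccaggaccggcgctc
Both windows were rich in G and C, at 73.6% for CHRNA3 and 72.4% for CHRNB4, against a median of 58.0% over all promoters of the table. The CHRNA3 window held 4 GC boxes, all on the strand opposite to the gene and 3 of them in an overlapping run, and 1 E-box. In the CHRNB4 window there were 3 GC boxes, 2 on the gene's strand and 1 on the other, and 2 E-boxes. Neither window held the letters TATAAA. Among all windows of this length, 42.6% held GGGCGG, 61.8% CANNTG and 10.7% TATAAA, so these matches describe the letters and mark no binding site.

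CHRNA5 was detected in all 65 libraries (6 to 132 counts, 3.59 to 70.1 CPM). CHRNA3 had a count in 60 of 65 libraries (up to 83 counts, 48.7 CPM), and 2 of its 16 groups, WT and KO at day 7.5, were at the floor. CHRNB4 had a count in 41 of 65 libraries (up to 48 counts, 28.1 CPM), and 8 of its 16 groups were at the floor, among them all groups of day 7.5.

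**Figure D2:**
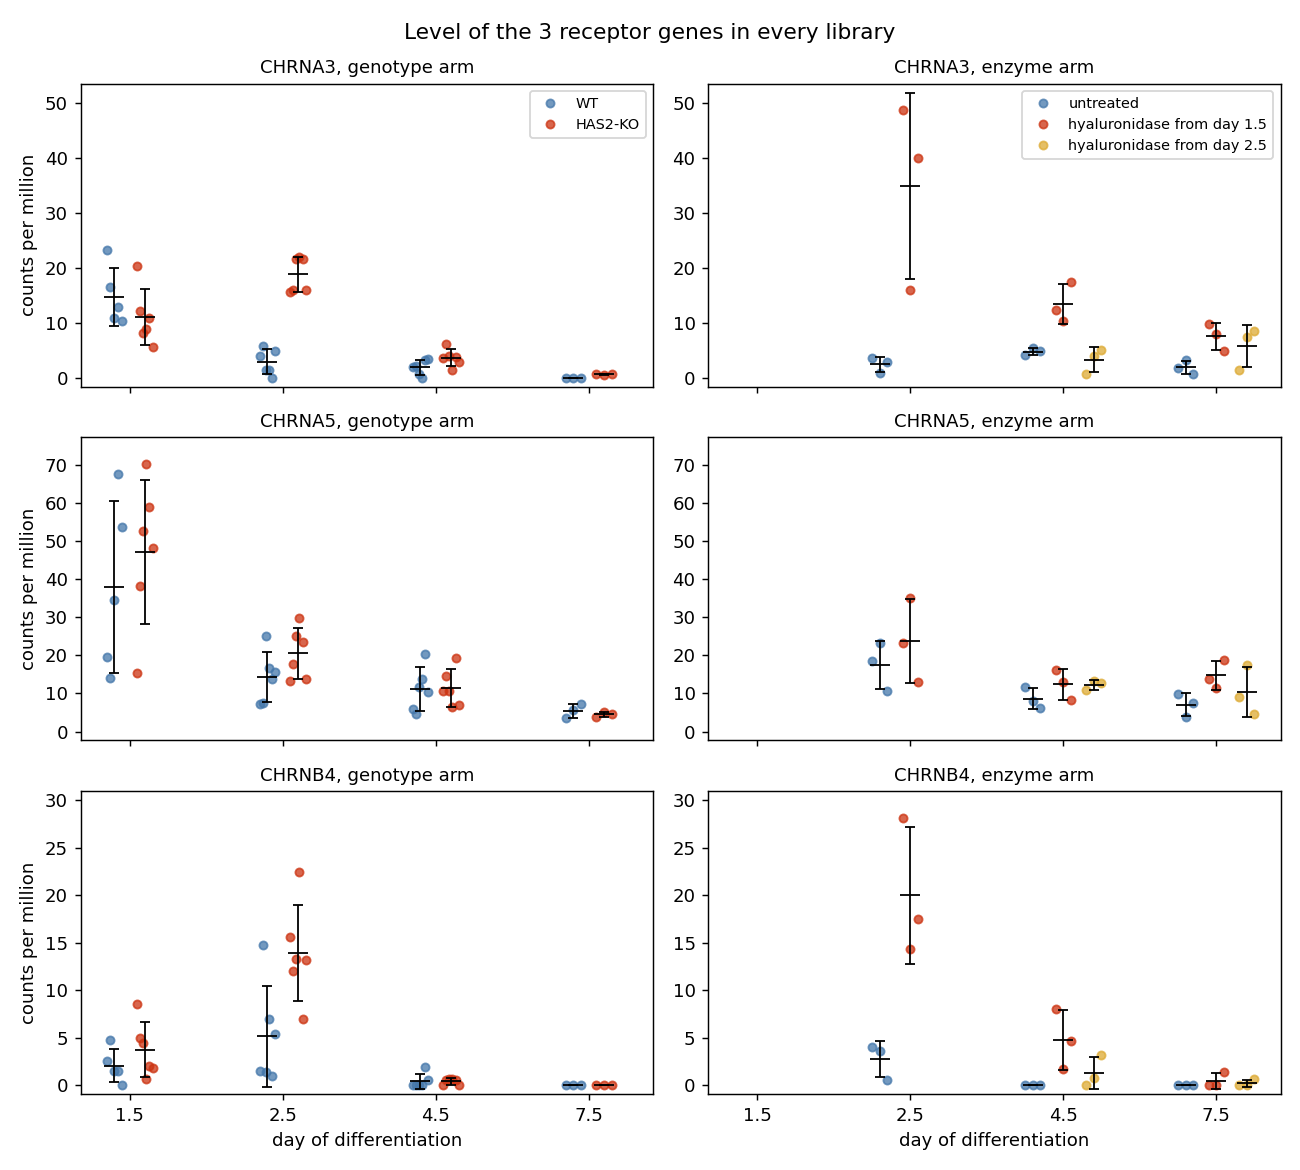
CPM of each receptor gene (rows) by day of differentiation in the genotype arm (left) and the enzyme arm (right); each point is 1 library, and the black bar and whiskers are the group's mean ± SD. CHRNA3 stands at 15.6 to 21.9 CPM in the 6 KO libraries of day 2.5 and at 0 to 5.86 CPM in the 6 WT libraries, CHRNA5 is highest at day 1.5 in both genotypes, and CHRNB4 is at or near 0 from day 4.5 on except in some libraries under HAse1.5 and HAse2.5 at day 4.5.

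At day 2.5 CHRNA3, the ligand-binding alpha subunit of the ganglionic receptor, had 0, 2.73 and 5.86 CPM (lowest, median and highest) in the 6 WT libraries and 15.6, 18.9 and 21.9 CPM in the 6 KO libraries. The groups did not overlap, and the log2 fold change was 2.52 (SE 0.45). CHRNB4, its beta partner, had 1.02, 3.44 and 14.8 CPM in WT and 7.02, 13.3 and 22.5 CPM in KO, with a log2 fold change of 1.33 (SE 0.60). Here the groups overlapped through 1 WT library, WT_TU_R1 at 14.8 CPM. Without it the log2 fold change of CHRNB4 was 2.07. That was the top of the range of 1.12 to 2.07 over the 12 fits that left out 1 library, of which 0 gave a call. CHRNA5 had 7.34, 14.7 and 25.0 CPM in WT and 13.2, 20.7 and 29.8 CPM in KO, largely the same range, with a log2 fold change of 0.54 (SE 0.36). In this comparison, which chose the genes, 0.993% of all genes were called by edgeR at an adjusted p under 0.05, and of the 3 receptor genes 1, CHRNA3, was.

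All KO clones had CHRNA3 above WT at day 2.5: cl4 gave 15.6, 15.9 and 21.7 CPM in its 3 libraries, cl14 21.9, cl46 21.7 and cl51 16.1. The libraries fall into 3 blocks of library numbers (A, B and C here). Since the groups did not overlap, KO had to lie above WT in every clone and block, so the split adds no support. CHRNA3 was 4.04 and 5.86 CPM in WT against 15.6 in KO in block A, 1.43 and 1.40 against 15.9 in block B, and 0 and 4.92 against 16.1 to 21.9 in block C. For CHRNB4 the WT lines differed: WT_TU gave 14.8 and 6.98 CPM and TNT2 5.41 CPM, while WT gave 1.47 and 1.43 and cl43_WT_UT 1.02 CPM.

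In the enzyme arm at day 2.5, CHRNA3 was 3.57, 0.894 and 2.80 CPM in untreated libraries of the lines TNNI1, WT and TNNT2 and 48.7, 15.98 and 39.97 CPM under HAse1.5. Each treated library was above every untreated one, and the log2 fold change was 3.67 (SE 0.59). CHRNB4 was 4.09, 3.58 and 0.561 CPM untreated and 28.1, 14.4 and 17.5 CPM under HAse1.5, again without overlap, with a log2 fold change of 2.82 (SE 0.82). CHRNA5 was 18.4, 23.3 and 10.7 CPM untreated and 23.3, 35.15 and 13.1 CPM treated. The ranges of CHRNA5 overlapped, although each of the 3 lines was higher when treated, and the log2 fold change was 0.43 (SE 0.44). Of all genes, 1.15% were called in this comparison, and of the receptor genes CHRNA3 was.

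Under early hyaluronidase at day 4.5, CHRNB4 had 0 counts in all 3 untreated libraries and 13, 2 and 8 counts (8.07, 1.73 and 4.66 CPM) under HAse1.5, which is at least 2.13-fold higher against the floor and at least 1.41-fold without the TNNI1 library. This call rested on few counts: without single libraries it was lost in 5 of 6 cases. CHRNA3 was 4.09, 5.33 and 4.87 CPM untreated and 12.4, 10.4 and 17.5 CPM under HAse1.5, without overlap, with a log2 fold change of 1.41 (SE 0.57) that was not called. CHRNA5 was 11.6, 7.99 and 6.26 CPM untreated and 16.1, 13.0 and 8.15 CPM treated, higher in each line but overlapping, with a log2 fold change of 0.43 (SE 0.49). Here 3.48% of all genes were called, and CHRNB4 was the receptor gene among them. CHRNA5 was thus called in none of the 3 comparisons that chose the cluster. Of the calls in these comparisons, that of CHRNB4 under HAse1.5 at day 4.5 was just inside the threshold, with 13, 2 and 8 counts against 0. Of the differences not called, CHRNB4 under HAse1.5 at day 2.5 came nearest, with the log2 fold change of 2.82. It was not close to the threshold in the reported fit. Of 11 alternative fits it passed in 1, that without a filter on low counts.

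Markers of other cell states differed in the same comparisons. Of 5 primitive streak genes, which mark the cells that leave the epiblast to form mesoderm, MIXL1 and MESP2 were called higher in KO at day 2.5 (MESP2 from 3.84 ± 2.17 to 42.4 ± 16.6 CPM, mean ± SD, n = 6 and 6; edgeR adjusted p = 3.06e-05). Their summed level was 53.5 to 125 CPM in WT and 131 to 220 CPM in KO. Under HAse1.5 at day 2.5 the sum was 201 to 452 CPM against 69.8 to 125 CPM untreated, and MESP2 was called among the 4 genes tested. TBXT, the founding factor of the streak, was at 0 in WT and in untreated libraries of day 2.5. Of 12 cardiac genes, 1 was called higher in KO at day 2.5 (MESP1, a factor of early cardiac mesoderm) and 4 lower, among them TBX5, TNNT2 and MYL7, and the summed level was 438 to 788 CPM in KO against 773 to 1993 CPM in WT. At day 4.5 under HAse1.5 the cardiac sum was 2458 to 4601 CPM against 8605 to 17540 CPM untreated, with 2 genes called higher and 5 lower, and NPPA was at 0 in the treated libraries. The sums overlapped in other cases: the cardiac sum under HAse1.5 at day 2.5 was 496 to 1577 CPM against 891 to 1556 CPM untreated, with TBX5 called lower. The streak sum under HAse1.5 at day 4.5 was 9.51 to 76.3 CPM against 9.74 to 21.3 CPM. The part of these markers in the result was not tested.

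Of 17 autonomic neuron and neural crest markers, 3 were tested and 0 were called in the 2 comparisons of day 2.5, where 0.993% and 1.15% of all genes were called. CHAT, which makes acetylcholine, was at 0 in every library. DBH and NEUROG2 were at 0 in all 4 groups of day 2.5. The summed level of the 17 genes was 11.7 to 18.8 CPM in WT and 10.8 to 20.0 CPM in KO at day 2.5, and 12.3 to 15.7 CPM untreated against 10.3 to 25.6 CPM under HAse1.5. At day 4.5, GAP43, which is active in growing axons, fell under HAse1.5 (from 48.0 ± 37.7 to 3.48 ± 2.31 CPM, n = 3 and 3; edgeR adjusted p = 0.0423). In the 10 comparisons of genotype or enzyme, 0 of 22 tests of endothelial markers were called, against 0.00% to 3.74% of all genes by comparison. Calls were 2 of 34 tests for the endoderm list and 1 of 6 for the epicardial list, all lower. For the pluripotency list 1 of 18 tests was called, higher. These tests are too few to set a list apart from all genes.

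The comparisons that did not choose the genes gave no call. Over 7 such comparisons of genotype or enzyme, 0 of 21 tests of a receptor gene passed in edgeR and 0 in DESeq2. Among these tests, 3 had an unadjusted edgeR p under 0.05. By edgeR 0.00% to 3.74% of all genes were called by comparison, so 0 of 21 does not set the receptor genes apart. In some of these tests, most of them of CHRNB4, both groups were at the floor, so those tests could hardly pass. At day 1.5 CHRNA3 was 10.3, 12.8 and 23.2 CPM (lowest, median, highest) in WT and 5.60, 9.95 and 20.3 CPM in KO, overlapping, with a log2 fold change of -0.45 (95% interval -1.29 to 0.40; edgeR adjusted p = 0.937). CHRNA5 (log2 fold change 0.31, interval -0.40 to 1.03) and CHRNB4 (0.75, interval -0.64 to 2.15) likewise overlapped. At that day 0.00% of all genes were called by edgeR and 591 had an unadjusted p under 0.05, none of them a receptor gene.

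At day 4.5 CHRNA3 was 0, 2.02 and 3.47 CPM in WT and 1.42, 3.66 and 6.11 CPM in KO, with a log2 fold change of 0.83 (interval -0.21 to 1.87; edgeR adjusted p = 0.388). In block C, with 2 WT and 4 KO libraries, it was 3.30 and 3.47 CPM in WT and 1.42 to 4.03 CPM in KO, and a fit to block C alone gave -0.18. CHRNA5 at day 4.5 was 4.68, 11.1 and 20.4 CPM in WT and 6.41, 10.7 and 19.4 CPM in KO, the same range, with a log2 fold change of 0.03 (interval -0.73 to 0.79). CHRNB4 was at the floor in both genotypes. The share of genes called was 3.74%. At day 7.5, with 0.348% of genes called, CHRNA3 had 0 counts in each WT library and 1 count in each KO library, CHRNB4 had 0 counts in all 6, and CHRNA5 was 3.59 to 7.11 CPM in WT and 3.90 to 5.18 CPM in KO, not distinguishable at this depth.

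Under the late start of hyaluronidase, CHRNA3 at day 4.5 was 0.719, 3.90 and 5.13 CPM in the lines TNNI1, WT and TNNT2. These overlapped the untreated libraries, which are also those of the HAse1.5 comparison (log2 fold change -0.55, interval -1.91 to 0.81; edgeR adjusted p = 0.998). CHRNA5 was 10.8, 13.3 and 12.8 CPM and overlapped untreated as well (0.47, interval -0.54 to 1.47). CHRNB4 had 0, 1 and 5 counts under HAse2.5 against 0, 0 and 0, too few for a fold. In this comparison 0.220% of genes were called.

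At day 7.5 CHRNA3 was 1.78, 3.19 and 0.742 CPM untreated, 9.78, 7.91 and 4.88 CPM under HAse1.5, and 1.38, 7.38 and 8.51 CPM under HAse2.5, in the order of lines TNNI1, WT and TNNT2. HAse1.5 lay above untreated in every library, with a log2 fold change of 1.78 (interval 0.37 to 3.19), but the edgeR adjusted p was 0.174. HAse2.5 overlapped untreated (1.46, interval 0.03 to 2.89; edgeR adjusted p = 0.361) through the TNNI1 library. CHRNA5 was 9.82, 3.83 and 7.42 CPM untreated, 13.9, 11.5 and 18.8 CPM under HAse1.5, and 8.997, 17.4 and 4.58 CPM under HAse2.5. Its HAse1.5 values did not overlap untreated either (0.98, interval -0.04 to 2.00; edgeR adjusted p = 0.321), and its HAse2.5 values did (0.52, interval -0.52 to 1.56). The early and the late start at day 7.5 did not differ beyond their spread for CHRNA3 (0.32, interval -0.88 to 1.52) or CHRNA5 (0.46, interval -0.50 to 1.43), intervals that reach past a log2 fold change of 1. CHRNB4 had 0, 0 and 0 counts untreated, 0, 0 and 2 under HAse1.5 and 0, 0 and 1 under HAse2.5. The shares of genes called were 3.33% for HAse1.5, 0.659% for HAse2.5 and 0.00784% for HAse1.5 against HAse2.5. All 3 comparisons of day 7.5 share libraries with another.

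**Figure D3:**
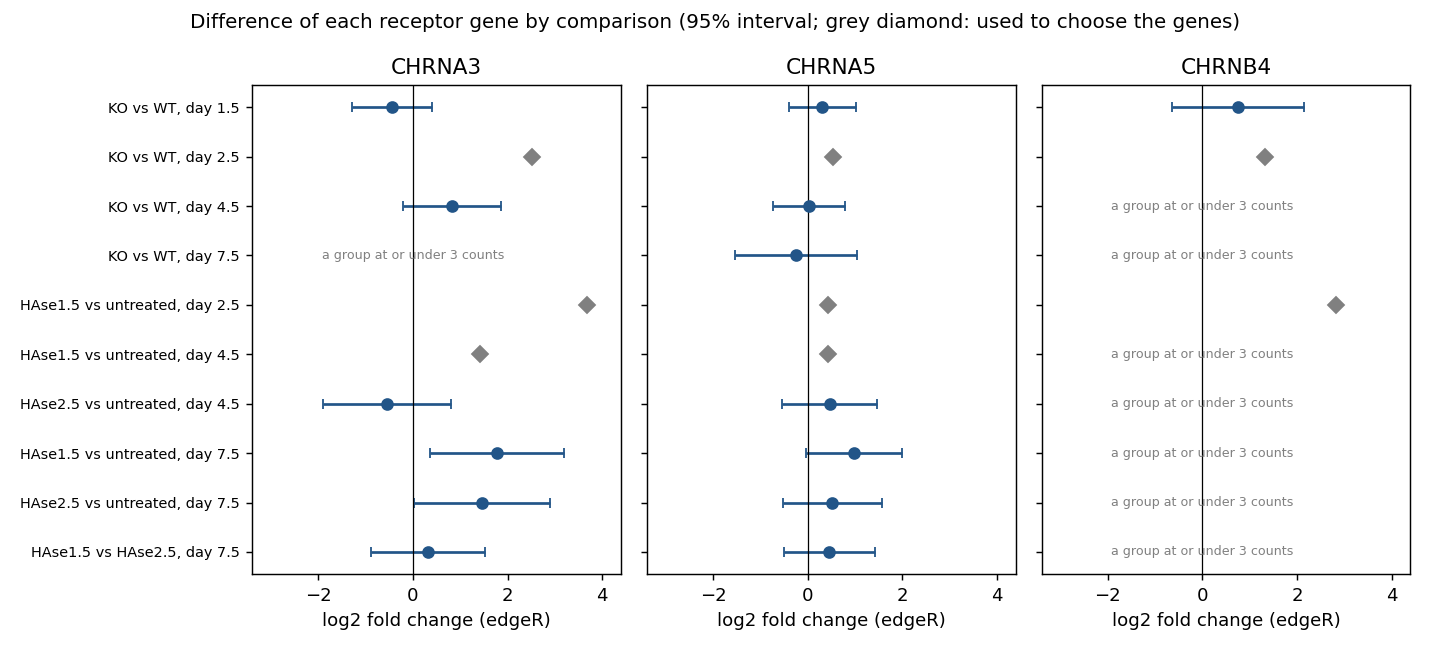
Log2 fold change of each receptor gene in the 10 comparisons of genotype or enzyme, from edgeR; circles carry a 95% interval, grey diamonds mark the comparisons that chose the genes and carry none, and no value is drawn where a group is at or under 3 counts in every library. CHRNA5 stays between -0.26 and 0.98, and CHRNA3 under HAse1.5 reads 3.67 at day 2.5, 1.41 at day 4.5 and 1.78 at day 7.5.

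Effects were also compared between days: differences between the KO effects at days 1.5, 4.5 and 7.5 and between the HAse2.5 effects at days 4.5 and 7.5 had edgeR adjusted p of 0.815 or above for all 3 genes. In WT and KO, CHRNB4 was at the floor at days 4.5 and 7.5 and CHRNA3 at day 7.5, so tests with those groups could hardly pass. Away from the floor, CHRNA3 had log2 differences of 1.28 (KO effect, day 4.5 against 1.5) and 2.01 (HAse2.5 effect, day 7.5 against 4.5). The high p-values do not show equal effects. The effects at day 2.5 and of HAse1.5 at day 4.5 were left out of these tests because they chose the genes.

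The levels of all 3 genes changed over the days. The steps that start or end at day 2.5, and those of untreated cardioids, use libraries of the comparisons that chose the genes and are not independent of that choice. The p-values of these steps describe values that in part made the choice and give it no support. From day 1.5 to 2.5 in WT, CHRNA3 fell from 14.8 ± 5.30 to 2.94 ± 2.32 CPM (n = 5 and 6; log2 fold change -2.44, SE 0.45; edgeR adjusted p = 5.99e-05), and every WT library of day 2.5 was below every one of day 1.5. In KO over the same step CHRNA3 was 11.04 ± 5.09 and 18.8 ± 3.23 CPM and the step was not called (0.52, SE 0.40). CHRNA5 fell in both genotypes, from 37.9 ± 22.6 to 14.3 ± 6.60 CPM in WT (-1.60, SE 0.37; edgeR adjusted p = 0.000766) and from 47.2 ± 18.9 to 20.5 ± 6.65 CPM in KO (-1.38, SE 0.35; edgeR adjusted p = 0.00202). CHRNB4 rose in KO from 3.76 ± 2.89 to 13.96 ± 5.05 CPM (1.58, SE 0.62; edgeR adjusted p = 0.0448), a call lost in 10 of the 12 fits that left out 1 library. In WT CHRNB4 was 2.09 ± 1.77 and 5.18 ± 5.31 CPM, not called. By edgeR 30.1% of all genes were called in this step in WT and 33.3% in KO, against which the 2 of 3 receptor genes called in each genotype are to be read.

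From day 2.5 to 4.5 CHRNB4 dropped to the floor in both genotypes. The decrease was at least 3.25-fold in WT (edgeR adjusted p = 0.000657), or at least 2.05-fold without the library WT_TU_R1 of day 2.5, and at least 7.71-fold in KO (edgeR adjusted p = 1.37e-05), and the KO libraries of the 2 days did not overlap. CHRNA3 fell in KO from 18.8 ± 3.23 to 3.63 ± 1.53 CPM (-2.34, SE 0.45; edgeR adjusted p = 7.76e-05), also without overlap, and was 2.94 ± 2.32 and 1.91 ± 1.39 CPM in WT, not called. CHRNA5 was 14.3 ± 6.60 and 11.2 ± 5.71 CPM in WT (-0.33, SE 0.37) and 20.5 ± 6.65 and 11.5 ± 4.90 CPM in KO (-0.84, SE 0.37), not called in either. With number blocks as a term CHRNA5 passed in KO (edgeR adjusted p = 0.0200). All genes were called at 34.5% in WT and 30.5% in KO. In untreated cardioids of the enzyme arm CHRNB4 went from 8, 4 and 1 counts to 0, 0 and 0, at least 1.21-fold lower. This minimum was 0.913 without the TNNI1 library of day 2.5, so it assures no fall. The untreated groups of both days entered comparisons that chose the genes, so the change is a description. By edgeR 23.0% of all genes were called in the step, and the call of CHRNB4 was lost in 5 of 6 fits without 1 library. CHRNA3 in these libraries was 0.894 to 3.57 CPM at day 2.5 and 4.09 to 5.33 CPM at day 4.5, apart but not called (0.73, SE 0.67; edgeR adjusted p = 0.467), and CHRNA5 was not called either (-1.10, SE 0.47; edgeR adjusted p = 0.0957).

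From day 4.5 to 7.5, CHRNA3 in WT went from 0 to 6 counts per library to 0 in all 3, at least 1.03-fold lower (edgeR adjusted p = 0.0416, with 2.70% of genes called). This minimum was 0.859 without the TNT2 library of day 4.5, so it assures no fall. The call of CHRNA3 in WT was lost in 7 of 9 fits without 1 library. The lines TNT2 and cl43_WT_UT, highest in WT at day 4.5 (3.47 and 3.30 CPM), had no library at day 7.5. In KO CHRNA3 went from 2 to 10 counts to 1 in each library (not called, edgeR adjusted p = 0.0853) and CHRNA5 from 11.5 ± 4.90 to 4.58 ± 0.64 CPM without overlap (-1.25, SE 0.53; edgeR adjusted p = 0.191), with 6.22% of genes called. With number blocks as a term CHRNA5 passed here (edgeR adjusted p = 0.00968). In untreated cardioids CHRNA3 was 4.76 ± 0.62 and 1.91 ± 1.23 CPM and CHRNA5 8.62 ± 2.73 and 7.02 ± 3.01 CPM, neither called, with 6.39% of genes called.

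Over the 16 groups, CHRNA3 was highest under HAse1.5 at day 2.5 (34.9 ± 17.0 CPM, n = 3), then in KO at day 2.5 (18.8 ± 3.23), WT at day 1.5 (14.8 ± 5.30), HAse1.5 at day 4.5 (13.4 ± 3.65) and KO at day 1.5 (11.04 ± 5.09). CHRNB4 followed with HAse1.5 at day 2.5 (20.0 ± 7.22), KO at day 2.5 (13.96 ± 5.05) and WT at day 2.5 (5.18 ± 5.31) at its head. For CHRNA5 the order began with KO and WT at day 1.5 (47.2 ± 18.9 and 37.9 ± 22.6) and HAse1.5 at day 2.5 (23.9 ± 11.03), and ended with WT and KO at day 7.5 (5.43 ± 1.77 and 4.58 ± 0.64). Most neighbours in these orders were closer than the larger of their SDs. Of 15 neighbouring pairs, the difference was larger than that in 2 for CHRNA3, both at 2 CPM or less, in 0 for CHRNA5, and in 1 for CHRNB4, the step from KO to WT at day 2.5. Groups of different arms were not compared by a test.

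At day 1.5 the libraries also differed by number block, alike in WT and KO. CHRNA5 was 14.1 to 19.6 CPM in the 3 libraries of block A, 34.5 and 38.2 in block B and 48.1 to 70.1 in the 6 of block C, while CHRNA3 was 16.6 to 23.2 CPM in block A, 10.97 and 12.2 in block B and 5.60 to 12.8 in block C. Clone cl4, the only one in all 3 blocks, gave 15.4, 38.2 and 52.5 CPM of CHRNA5, 20.3, 12.2 and 8.23 CPM of CHRNA3 and 8.62, 4.98 and 4.43 CPM of CHRNB4 in blocks A, B and C. In cl4, CHRNA5 was thus lowest and CHRNA3 highest in block A, and the reverse held in block C. What the blocks stand for is not given in the labels. Within them, CHRNA5 at day 1.5 was 16.9 CPM in WT and 15.4 in KO (block A, mean of 2 and value of 1), 34.5 and 38.2 (block B, 1 each) and 60.7 and 57.4 (block C, means of 2 and 4).

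Other genes of cholinergic signalling were read beside the cluster. Of 13 other nicotinic receptor subunits, 9 had a count somewhere and CHRNA2, CHRNB3, CHRND and CHRNG were at 0 in every library. Only CHRNB1, the beta subunit of the muscle receptor, passed the filter. It was called in none of the 10 comparisons of genotype or enzyme, where 0.00% to 3.74% of all genes were called by comparison. It rose in WT from 4.57 ± 1.71 to 11.3 ± 2.29 CPM between days 2.5 and 4.5 (n = 6 and 6; edgeR adjusted p = 0.00346). CHRNA7, the subunit of the homomeric brain receptor, had at most 8 counts in a library.

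Of 13 genes for receptor assembly and modulation, 7 were tested. In the 10 comparisons of genotype or enzyme 0 of their 70 tests were called, against 0.00% to 3.74% of all genes by comparison. So few calls do not set the list apart from all genes. The median log2 fold change of the list lay between -0.44 and 0.27 there, and that of all genes between -0.03 and 0.02. Over the days some rose and others fell. RIC3, a chaperone of nicotinic receptors, rose in WT from 3.18 ± 0.81 to 8.15 ± 2.41 CPM at day 2.5 (edgeR adjusted p = 0.0104) and to 16.3 ± 2.62 CPM at day 4.5 (edgeR adjusted p = 0.00785). TMEM35A, also a receptor chaperone, rose in WT from 2.38 ± 1.49 to 13.8 ± 5.80 CPM between days 1.5 and 2.5 (edgeR adjusted p = 3.85e-05). In KO LYPD1, which encodes a prototoxin-like protein that binds nicotinic receptors, went from 0.724 ± 1.24 CPM at day 2.5 to 22.2 ± 7.09 CPM at day 4.5 (edgeR adjusted p = 6.41e-07) and back to 1.46 ± 0.71 CPM at day 7.5 (edgeR adjusted p = 0.00251). Between days 1.5 and 2.5, 3 of the 7 rose and 1 fell in each genotype, while 30.1% of all genes were called in WT and 33.3% in KO.

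Of 12 genes for acetylcholine synthesis, transport, breakdown and muscarinic receptors, 5 were tested in the genotype arm and 4 in the enzyme arm. In the 10 comparisons of genotype or enzyme 0 of their 44 tests were called, against 0.00% to 3.74% of all genes by comparison. CHRM2, the main muscarinic receptor of the heart, was 0 CPM in all WT libraries of day 2.5 and 24.1 ± 18.7 CPM at day 4.5 (edgeR adjusted p = 1.73e-07), and in KO it rose from 0.106 ± 0.260 to 43.4 ± 17.8 CPM (edgeR adjusted p = 9.33e-08). ACHE, which breaks acetylcholine down, rose in WT from 2.55 ± 1.46 to 28.4 ± 21.3 CPM over the same step (edgeR adjusted p = 2.85e-06) and in KO from 2.59 ± 1.77 to 13.1 ± 4.30 CPM (edgeR adjusted p = 0.00241). PRIMA1, its membrane anchor, fell in both genotypes over that step (edgeR adjusted p = 0.000518 and 0.00452). CHRM2 thus rose over the step in which CHRNB4 fell in both genotypes.

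**Figure D4:**
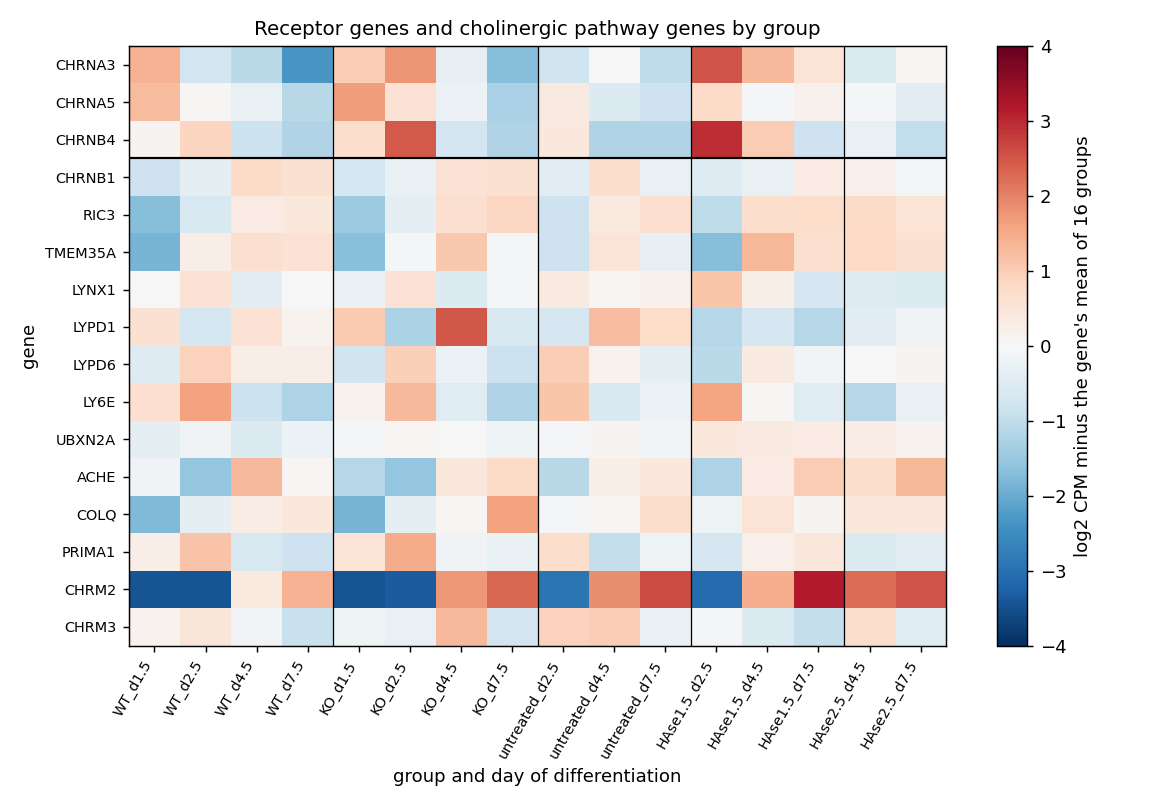
Mean log2 CPM (prior count 2) of each gene in each of the 16 groups, minus that gene's mean over the groups; the 3 receptor genes are above the black line and the 13 tested pathway genes below it, and vertical lines part WT, KO, untreated, HAse1.5 and HAse2.5. CHRNA3 and CHRNB4 are at their highest under HAse1.5 and in KO at day 2.5, while CHRM2 is low in all groups of days 1.5 and 2.5 and high in all later ones.

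The genes around the cluster on chromosome 15 were read as well. Of 38 other genes within 500 kb of it in the count table, 11 were tested in the genotype arm and 9 in the enzyme arm. In the 10 comparisons of genotype or enzyme 1 of their 98 tests was called, against 0.00% to 3.74% of all genes by comparison. The gene called was ADAMTS7, a secreted protease, which rose under HAse1.5 at day 7.5 from 4.61 ± 3.75 to 17.6 ± 3.39 CPM (n = 3 and 3; edgeR adjusted p = 0.0313). It was called in none of the comparisons of day 2.5. Over the steps IDH3A, an enzyme of the citric acid cycle, fell in WT from 62.7 ± 1.37 to 22.5 ± 4.42 CPM between days 1.5 and 2.5 (edgeR adjusted p = 1.43e-08) and rose to 193 ± 41.9 CPM at day 4.5 (edgeR adjusted p = 1.24e-15). CRABP1, which binds retinoic acid, fell in WT from 63.3 ± 41.8 to 20.9 ± 11.7 CPM in the first step (edgeR adjusted p = 0.00592).

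By their means over the 16 groups, the genes of the cluster were alike in part. These means include the groups whose comparisons chose the genes, so the likeness rests in part on the values used for the choice. The Pearson correlation of mean log2 CPM was 0.752 for CHRNA3 and CHRNA5, 0.756 for CHRNA3 and CHRNB4 and 0.649 for CHRNA5 and CHRNB4. Among the 12566 genes tested in both arms, CHRNB4 ranked 77th and CHRNA5 86th by likeness to CHRNA3. In the other direction, CHRNA3 ranked 656th by likeness to CHRNB4 and 1129th by likeness to CHRNA5. CHRNB4 ranked 2027th by likeness to CHRNA5, and CHRNA5 ranked 1571st by likeness to CHRNB4. Over the 65 libraries the same correlations were 0.509, 0.695 and 0.414, where points share library depth, day and line. The genes most like CHRNA3 over the group means were DR1, ZBTB8A, SOGA1, CXCR4 and CANT1 (0.88 to 0.85). CXCR4, a chemokine receptor of migrating mesoderm, was 4.97 ± 4.25 CPM in WT and 13.8 ± 4.02 CPM in KO at day 2.5 and 18.7 ± 8.62 CPM under HAse1.5 at that day. The rest of this list differed less between WT and KO at day 2.5. Means were 43.4 and 49.8 CPM for DR1, 28.5 and 35.2 for ZBTB8A, 48.9 and 65.1 for SOGA1, and 43.0 and 47.4 for CANT1. Most like CHRNA5 were DDX27, METTL13, RPUSD4, ITPRIPL1 and TMEM43 (0.96 to 0.94). DDX27, an RNA helicase of ribosome assembly, went from 230 ± 80.9 CPM in WT at day 1.5 to 102 ± 16.6 CPM at day 7.5. Most like CHRNB4 were STK31, TRG-AS1, PSIP1, CXXC5 and DTX1 (0.94 to 0.91). These lists describe 16 points each, and none of the 5 genes closest to CHRNB4 was among its 5 closest over the 65 libraries.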

How the data were processed

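Gene expression was measured in 65 libraries with a 3′ mRNA kit (QuantSeq FWD), read single-end, per the labels' protocols. The authors deposited 1 table of whole-number read counts per Ensembl gene, which the submitters' processing notes credit to featureCounts (Subread 1.6.2) with the builds hg38 and GRCh38. The aligner, strand setting and any use of molecular identifiers are not given in the sources used here. Of its columns, 4 belong to no listed sample and were not used. The 3 receptor genes and all gene lists were chosen with earlier results of these data known.

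From the counts, CPM were computed on library totals and log2 CPM with a prior count of 2. Tests used edgeR 4.0.16 in R 4.3.3 (filterByExpr with a minimum count of 10, TMM factors, robust quasi-likelihood fit, 1 mean per group over an arm, two-sided, Benjamini-Hochberg adjustment over all genes of the arm, threshold 0.05); the code was first tested on simulated data. Groups follow the sample titles. The labels speak of at least 3 biological replicates per condition but do not tie each library to a separate culture, so p-values measure the spread between these libraries.

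Counts of 115 replicate pairs differed with a chi-square per degree of freedom of 2.07 to 71.8, so no library was counted as a duplicate. In the enzyme arm the replicate numbers stand for lines and pair the libraries by design; 15 of 21 same-line pairs of 1 day had residual r above 0.1 (lowest -0.0987). In the genotype arm, blocks of library numbers (27 of 37 pairs above 0.1, lowest -0.0743) were used as an alternative term. Other alternatives were RLE factors, no filter, DESeq2 1.42.0, fits to 2 groups, summed lines, and leaving out each library. Named list genes are those past the threshold, at most 4 per list and comparison by smallest p. Likeness used Pearson r over 16 group means.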

Additional observations from a re-analysis of the deposited data

Results flagged for a closer look

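Over 18 gene and group combinations with enough libraries to check for a library far from the others, 1 stood out: CHRNB4 in WT at day 4.5, where the line cl43_WT_UT had 1.98 CPM (3 counts) and the next highest library 0.578 CPM (1 count), with 0 counts in the other 4. The gap took up 0.708 of the group's range. All values of this group are at the floor of 3 counts, and about 1 such flag in 20 is given by chance.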

How the results depend on the processing

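Counts of called receptor genes were recomputed under 251 combinations of comparison and setting, and 216 stayed within 1.5 times the reported count. With only the 2 groups in the fit, 0 genes passed for WT from day 2.5 to 4.5, WT from day 4.5 to 7.5, HAse1.5 against untreated at day 4.5 and untreated from day 2.5 to 4.5, since the gene called in each did not pass the filter of that smaller fit and was not tested. Without a filter on low counts, 0 passed for WT from day 4.5 to 7.5, 1 for KO from day 1.5 to 2.5, and 2 for HAse1.5 against untreated at day 2.5. With the replicate block of library numbers, 1 gene (CHRNA5) passed for KO from day 4.5 to 7.5 instead of 0. The replicate block changed no other count by more than 1.5 times, and the paired fit by line in the enzyme arm changed no count. Leaving out 1 library gave 1 to 2 genes for KO from day 1.5 to 2.5 and 0 to 1 for WT from day 4.5 to 7.5, untreated from day 2.5 to 4.5 and HAse1.5 against untreated at day 4.5. Among single genes, 575 of 622 log2 fold changes kept direction and side of the threshold. The direction reversed in 13, all of them below 0.5 in size and none called. CHRNA5 in KO against WT at day 4.5 reversed with the replicate block (-0.11), with summed lines (-0.0128) and in block C alone (-0.49), and ranged from -0.17 to 0.27 without single libraries. In block C alone, a setting chosen after seeing the data, CHRNA5 at day 1.5 (-0.076) and CHRNA3 at day 4.5 (-0.18) also reversed. Without single libraries, CHRNA5 ranged from -0.51 to 0.11 for untreated from day 4.5 to 7.5 and from -0.054 to 0.89 for HAse2.5 at day 7.5, and CHRNA3 from -0.11 to 0.70 for HAse1.5 against HAse2.5 at day 7.5. The cause was not tested. Of the 5 genes most like each member, 1, 1 and 0 were shared over the 65 libraries for CHRNA3, CHRNA5 and CHRNB4, 3 for CHRNA3 with a prior count of 5 and 3 for CHRNB4 with 0.5. Counts for the comparisons that chose the genes describe that choice and support nothing. Group means moved by less than 1 SD with TMM sizes in 48 of 48 cases. Depth limits CHRNB4 most, with 8 of 16 groups at 3 counts or fewer per library.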
